A study of Mus musculus with 18 samples.

Results

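The genes of the podocyte slit diaphragm and of its actin cytoskeleton were followed in the kidney cortex of mice given antibodies to the glomerular basement membrane, a model of glomerulonephritis (anti-GBM-GN). The set was Nphs1, Wt1, Podxl, Synpo, Cd2ap, Kirrel, Ptpro, Magi2, and Actn4, and its members were every array probe that carried 1 of these 9 symbols. Of the 9 symbols, 8 had a probe, with 15 probes among the 46632 of the table that holds B6 and NZW. Through a shared search key, 6 of the genes had 8 rows among the 46147 of the table that holds BALB/c, DBA1, and 129/svj. No row of the table with symbols carried Wt1, so that gene was not analysed here. Cortex RNA of 15 mice aged 2 months, 3 of each strain, was hybridised to 18 Illumina mouse BeadChip arrays. B6 and BALB/c are the strains called resistant to anti-GBM-GN, and DBA1, 129/svj, and NZW those called sensitive. All the mice had been challenged with anti-GBM antibody, so a lasting strain difference and a different response to the antibody cannot be told apart. The share of probes detected on an array ranged from 30.5% to 36.4%.

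Podocytes wrap the glomerular capillaries with interlocking foot processes, and the slit between neighbouring foot processes is bridged by the slit diaphragm. Nephrin and its relatives form this bridge, adaptor proteins tie it to the actin filaments inside the foot process, and loss of several of these proteins causes leakage of protein into the urine. In whole cortex podocytes are a small share of the cells, other cells can express some of the members too, and fewer podocytes cannot be told apart from less RNA per podocyte.

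Many of the member probes gave no signal above background. A probe was tested if its detection p, against the negative control beads, was 0.05 or less in at least 3 mice. In the table of B6 and NZW, 7 of the 15 probes passed, from Nphs1, Podxl, Synpo, Ptpro, and Actn4. Among BALB/c, DBA1, and 129/svj, 2 of 8 rows passed, those of Nphs1 and Synpo. Both Cd2ap probes were detected in no mouse of either table. The same held for both Kirrel probes in B6 and NZW and for the single Kirrel row of the other table. These levels are given as log2 of the background-corrected signal, normalized within a table, and a level of 1 probe is not set against that of another.

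Among the components of the slit diaphragm, Nphs1, which encodes nephrin, showed no strain difference past the threshold in any comparison. Its levels in the B6 mice were 7.25, 6.52, and 6.48. In the NZW mice they were 6.73, 6.77, and 6.45. All 3 NZW values lay inside the range of the B6 mice or just below it, and B6 mouse 1 stood above all the others. The difference, B6 minus NZW, was 0.10 (95% interval -0.38 to 0.57, limma adjusted p = 0.795), and without B6 mouse 1 its sign turned, to -0.15. The levels of Kirrel, a nephrin relative that binds nephrin across the slit, lay between 4.57 and 4.84 in B6 and NZW. Cd2ap, an adaptor that links nephrin to actin, lay between 4.72 and 5.11. The Magi2 probe, for a scaffold protein of the slit diaphragm, lay between 4.58 and 4.86 and was also detected in no B6 or NZW mouse. A probe under the older symbol Acvrinp1, which RefSeq lists as a synonym of Magi2, carried the same search key. It was detected in all 6 B6 and NZW mice at 6.30 to 6.97, with a difference of 0.04 (95% interval -0.45 to 0.52, limma adjusted p = 0.93).

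Of the membrane proteins of the foot process, Ptpro was lower in B6 than in NZW. Ptpro encodes a receptor tyrosine phosphatase of the podocyte surface. The levels of its detected probe (ILMN_1213978) were 6.43, 7.07, and 6.86 in B6. They were 7.36, 7.50, and 7.32 in NZW. Every NZW mouse was above every B6 mouse, and the difference was -0.60 (95% interval -0.98 to -0.23, limma adjusted p = 0.0358), so that NZW was 1.52-fold higher. This was the 1 member probe of 7 tested that passed the threshold, in a comparison in which 18.8% of all 16756 tested probes passed it (9.61% lower in B6). Of the called probes 49% were higher in B6, with a median difference of -0.04 over all tested probes, and with arrays scaled to their 75th percentile these were 37.3% and -0.13. The deposited signals of this probe before normalization, 156 to 208 in B6 and 198 to 251 in NZW, did overlap. Under alternative processing the difference was as small as -0.41. The call was close to the threshold. It was kept without B6 mouse 2 (adjusted p = 0.0243) and lost without B6 mouse 1 (0.0891), B6 mouse 3 (0.0777), NZW mouse 1 (0.0782), NZW mouse 2 (0.0887), or NZW mouse 3 (0.0701), while the difference stayed between -0.75 and -0.43. The other Ptpro probes (ILMN_1216741 and ILMN_1226086) were not detected and lay between 4.49 and 4.97.

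The other membrane protein, Podxl, encodes podocalyxin, the main sialoprotein of the podocyte surface coat, and endothelial cells carry it too. Its levels were 11.80, 11.97, and 11.92 in B6. They were 11.51, 11.85, and 11.83 in NZW. The strains overlapped, and the difference was 0.17 (95% interval -0.12 to 0.46, limma adjusted p = 0.404). With arrays scaled to their 75th percentile in place of quantile normalization it was -0.03, so no direction can be given.

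Of the actin genes, Synpo encodes synaptopodin, an actin-binding protein of the foot process. Its detected probe (ILMN_1234978) read 11.70, 11.85, and 11.72 in B6. It read 11.52, 11.67, and 11.32 in NZW. The strains did not overlap, but the difference of 0.25 did not pass the threshold (95% interval -0.03 to 0.53, limma adjusted p = 0.196). It was 0.06 with arrays scaled to their 75th percentile and 0.16 without NZW mouse 3. Synpo and Ptpro were the 2 of 7 tested member probes without overlap, against 37.3% of all tested probes. The deposited signals of the Synpo probe before normalization, 3062 to 3740 in B6 and 2279 to 3775 in NZW, did overlap. The other Synpo probe (ILMN_1217858) lay between 4.72 and 5.15 and was detected in no mouse. Actn4 encodes alpha-actinin 4, a cross-linker of actin filaments that many cell types express. Its brightest probe (ILMN_2673599) read 10.36, 10.32, and 10.41 in B6. It read 10.35, 10.51, and 10.47 in NZW. The strains overlapped, the difference was -0.08 (95% interval -0.31 to 0.15, limma adjusted p = 0.633), and the other Actn4 probes gave -0.11 and 0.11 (adjusted p = 0.616 and 0.572). Under alternative processing the brightest probe reached -0.25, the probe at -0.11 reached -0.24, and that at 0.11 fell to 0.06, all without passing the threshold. With 1 mouse left out in turn the probe at -0.11 ranged from -0.23 to -0.03.

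**Figure D1:**
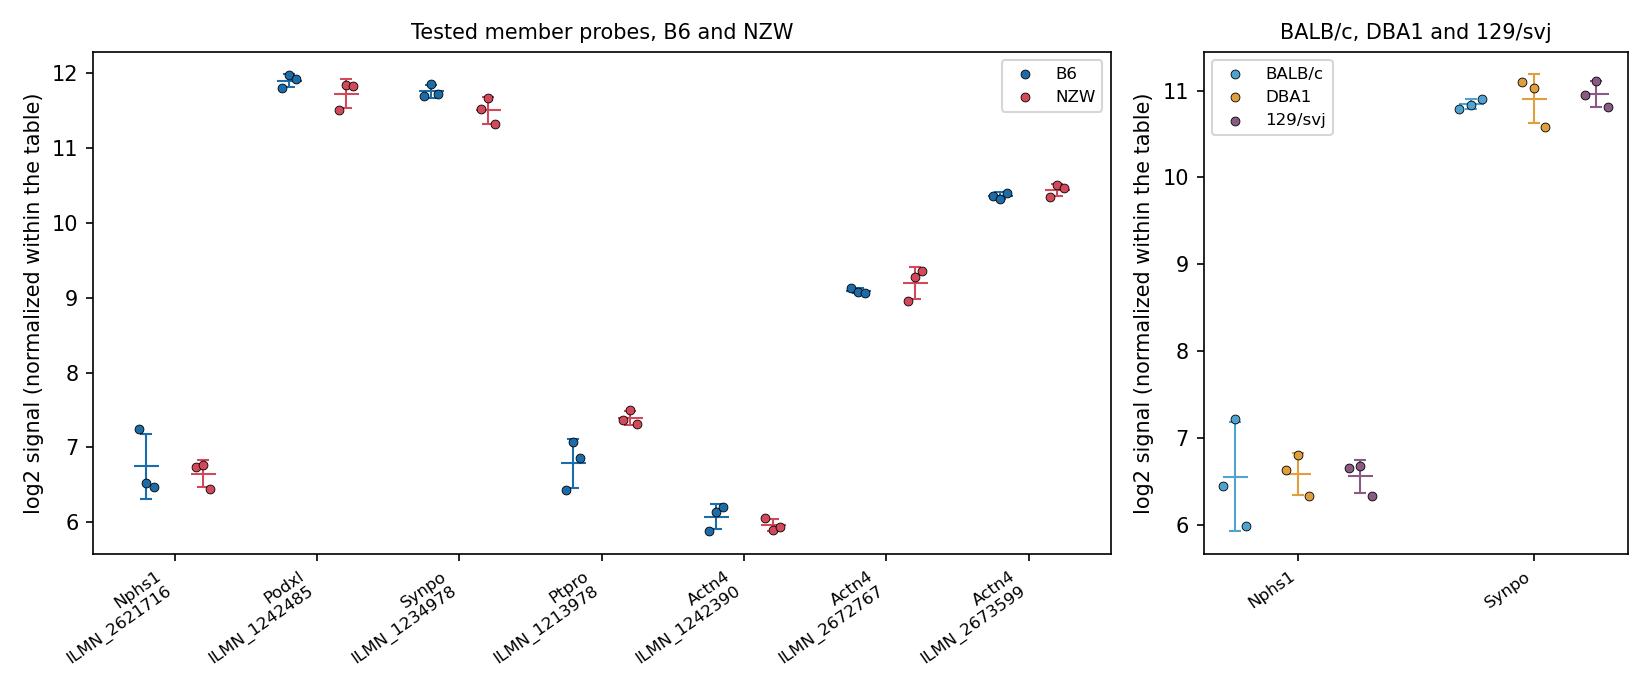
Log2 signal of the tested member probes, 1 point per mouse, with the mean and SD of each strain (n = 3), for B6 and NZW on the left and for BALB/c, DBA1, and 129/svj on the right. The tables were normalized apart, so levels are read within a panel. The Ptpro points of NZW all lie above those of B6, and the Nphs1 points of all strains overlap.

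Ptpro and Clic5, a podocyte gene described further on, were both called lower in B6, and the promoter windows of these genes and of Nphs1, which was not called, show the sequence just upstream of each. They are the 250 bases upstream of the RefSeq start, in build GRCm38.p6, chr6:137252049-137252298 for Ptpro, chr17:44188322-44188571 for Clic5, and chr7:30459808-30460057 for Nphs1, all on the plus strand. Capitals mark matches, on either strand, to GNGGGGGNG, a G-rich pattern of the kind that WT1 and EGR factors bind, and to CANNTG, the E-box. The windows were chosen after the values were seen.
Ptpro: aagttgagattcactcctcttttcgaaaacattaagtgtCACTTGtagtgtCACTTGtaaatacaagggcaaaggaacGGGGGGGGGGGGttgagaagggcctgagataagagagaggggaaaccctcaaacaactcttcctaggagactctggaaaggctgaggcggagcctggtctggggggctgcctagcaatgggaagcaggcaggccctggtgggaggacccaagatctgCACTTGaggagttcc
Clic5: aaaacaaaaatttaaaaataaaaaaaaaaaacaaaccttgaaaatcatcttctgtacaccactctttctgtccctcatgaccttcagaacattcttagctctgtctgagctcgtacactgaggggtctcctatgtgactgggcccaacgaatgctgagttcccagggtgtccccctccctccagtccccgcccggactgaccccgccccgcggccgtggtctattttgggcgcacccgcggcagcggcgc
Nphs1: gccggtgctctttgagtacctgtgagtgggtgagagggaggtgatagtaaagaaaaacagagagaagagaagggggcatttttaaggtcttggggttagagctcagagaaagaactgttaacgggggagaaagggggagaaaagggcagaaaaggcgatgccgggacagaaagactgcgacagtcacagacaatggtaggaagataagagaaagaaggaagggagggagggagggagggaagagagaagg
The Ptpro window held 4 overlapping matches to GNGGGGGNG in a single run of G, and 3 E-boxes. The windows of Clic5 and Nphs1 held 0 of either. Windows were also read for Cd2ap, Kirrel, Magi2, and Actn4, of which Actn4 alone was tested in B6 and NZW and was not called. Of the 6 members read, GNGGGGGNG was found in 3, Cd2ap, Magi2, and Ptpro, and CANNTG in 4, these and Actn4. Over all 32851 RefSeq promoter windows of this length, 17.0% held GNGGGGGNG and 66.2% held CANNTG. A further pattern, TAATTA, a homeodomain core, was in 4.84% of all windows and in 0 of the windows read here.

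In the table of BALB/c, DBA1, and 129/svj, neither tested member differed between strains. Nphs1 read 6.45, 7.22, and 5.99 in BALB/c. It read 6.63, 6.81, and 6.33 in DBA1 and 6.66, 6.68, and 6.34 in 129/svj. The BALB/c mice spread more widely than both sensitive strains and enclosed all their values. The differences were -0.04 for BALB/c minus DBA1 (95% interval -0.66 to 0.59, limma adjusted p = 0.966) and -0.01 for BALB/c minus 129/svj (-0.63 to 0.62, adjusted p = 0.997). Between the sensitive strains, DBA1 minus 129/svj was 0.03 (-0.59 to 0.66, adjusted p = 0.984). For mouse 1 of each of these strains a repeat array had been made, and the repeats of Nphs1 read 5.96 and 6.94 in BALB/c, 6.28 and 7.04 in 129/svj, and 6.55 and 6.72 in DBA1. In each of these strains the gap between arrays of the same mouse was thus larger than any difference between their means.

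Synpo had narrower intervals than Nphs1 in this table. It read 10.79, 10.84, and 10.90 in BALB/c. It read 11.10, 11.03, and 10.58 in DBA1 and 10.95, 11.11, and 10.81 in 129/svj. The 3 strains overlapped. The differences were -0.06 for BALB/c minus DBA1 (95% interval -0.43 to 0.31, limma adjusted p = 0.898), -0.11 for BALB/c minus 129/svj (-0.48 to 0.25, adjusted p = 0.835), and -0.05 for DBA1 minus 129/svj (-0.42 to 0.32, adjusted p = 0.951). Of these 2 tested member rows 0 were called in each comparison by limma, and 0 had an unadjusted p under 0.05, where 5.75%, 4.82%, and 4.48% of all 15818 tested probes were called. Neither row separated the mice of any pair of strains, where 25.5%, 21.9%, and 17% of all tested probes did.

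The Magi2 row of this table missed the filter and turned on the repeat array. It read 5.50, 6.54, and 6.01 in BALB/c. It read 5.15, 5.05, and 5.22 in DBA1 and 5.23, 5.31, and 5.18 in 129/svj. All BALB/c mice were above all the sensitive mice, but the mean detection p of BALB/c mouse 1 was above 0.05, because its first array gave 0.0204 and its repeat 0.284. No array of DBA1 or 129/svj detected it (detection p 0.131 to 0.415), so that these strains have only an upper bound, set on each array by the lowest signal of any detected probe. The first array of BALB/c mouse 1 read 5.88, and its repeat read 5.11, within the range of the sensitive mice. No bound was computed with the repeats kept. With the repeat arrays left out, BALB/c was at least 1.38-fold higher than DBA1 and at least 1.39-fold higher than 129/svj. The row then passed the filter only through the 3 BALB/c mice, in which it was high, so these values are a description and not a test. With the repeats kept and no filter on dim probes it was not called by limma (adjusted p = 0.102 and 0.18). The row shares its key with both the Magi2 and the Acvrinp1 probe of the other table, so which of them it corresponds to is not known. The Ptpro row with the key of the called B6 and NZW probe was not detected, at 4.51 to 4.71, but an undetected probe carries this key too. The other Ptpro row, at 4.86 to 5.42, was not detected either, nor were the Cd2ap rows, at 4.50 to 5.50, and the Kirrel row, at 4.88 to 5.30. The difference in Ptpro was therefore measured in B6 and NZW only.

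The comparison of the study, resistant against sensitive strains, could be made for Nphs1 and Synpo, whose probes were paired between the tables. Taken within tables and then averaged over 15 mice, resistant minus sensitive was -0.00 for Nphs1 (95% interval -0.39 to 0.38, limma adjusted p = 0.993) and 0.09 for Synpo (-0.13 to 0.30, adjusted p = 0.688). The intervals leave room for differences of up to 0.39 for Nphs1 and 0.30 for Synpo between these strains. Their error is the spread between mice within strains, so they do not bear on resistant and sensitive strains in general. At the same threshold 12% of the 6896 tested paired probes were called. The difference of the within-table differences was -0.06 for Nphs1 (adjusted p = 0.954) and -0.33 for Synpo (adjusted p = 0.39), where 10.3% of the probes were called.

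**Figure D2:**
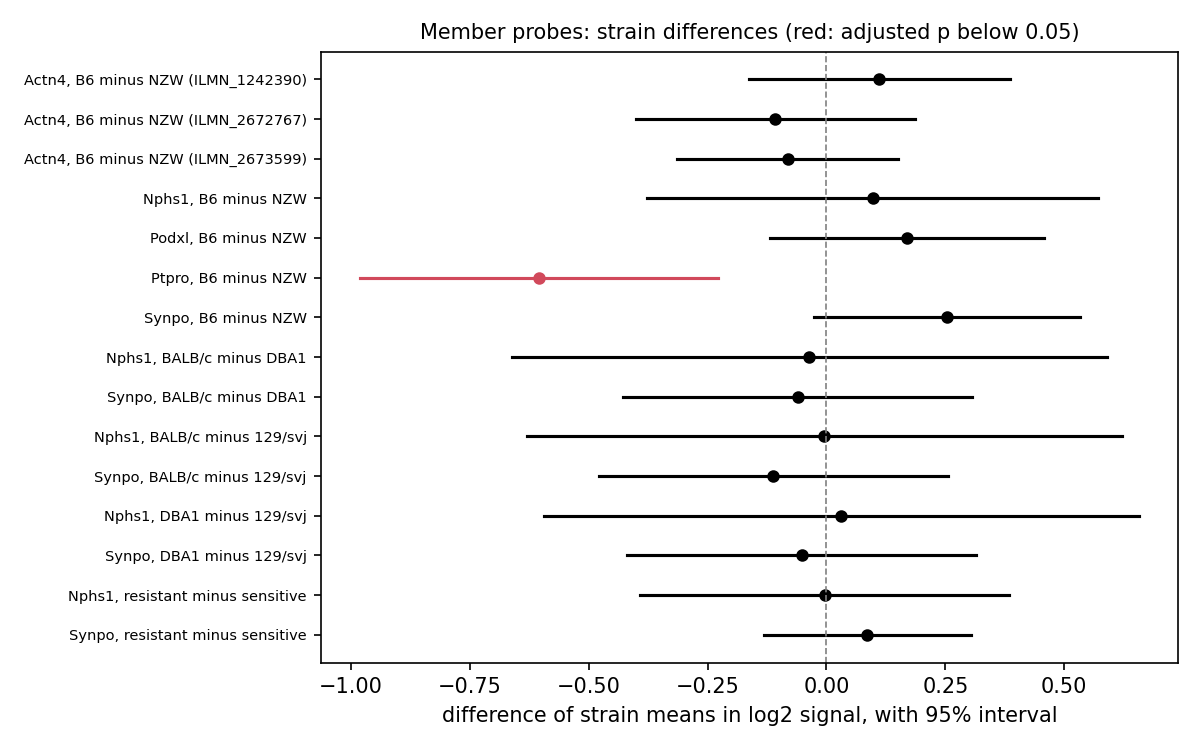
Differences of strain means in log2 signal (points) with 95% intervals (lines) for each tested member probe in the pairwise comparisons and in resistant minus sensitive. The interval of Ptpro in B6 minus NZW, -0.98 to -0.23, is the only one that lies off 0, and those of Nphs1 are the widest of their comparisons.

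Genes that work beside the members were taken from lists, with the brightest probe of each gene. Of the 14 slit diaphragm partners reported here, 13 had a probe in the table of B6 and NZW and 4 passed the filter. By limma 0 of these were called, against 18.8% of all tested probes. The list had a median difference of -0.15, where all tested probes had -0.04. Over the 8 tested probes of these genes, 2 had an unadjusted p under 0.05. The brightest gene was Iqgap1, an actin-binding scaffold protein, at -0.31 (95% interval -0.55 to -0.06, limma adjusted p = 0.0813). Magi1, a scaffold protein of cell junctions, was at 0.29 (adjusted p = 0.108), the polarity protein Pard3 at -0.28 (adjusted p = 0.355), and the large cadherin Fat1 at -0.02 (adjusted p = 0.923).

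Of 18 podocyte identity genes, 16 had a probe and 9 passed the filter, with 1 called higher and 1 lower in B6 and a median of 0.12. The called share, 22.2%, was near the 18.8% of all tested probes. In 5 of the 9 genes, 55.6%, the strains did not overlap, against 37.3% of all tested probes. Cdkn1c, a cell cycle inhibitor that marks mature podocytes, read 11.99, 12.03, and 11.71 in B6. It read 11.18, 11.33, and 11.34 in NZW. The strains did not overlap and the difference was 0.63 (95% interval 0.35 to 0.91, limma adjusted p = 0.00828), a call that was kept with each mouse left out in turn. Clic5, a foot process protein that binds ezrin, read 5.77, 5.97, and 6.38 in B6. It read 6.83, 6.63, and 6.61 in NZW. The strains did not overlap and the difference was -0.65 (95% interval -1.03 to -0.28, limma adjusted p = 0.0255), which was lost without B6 mouse 1 (0.0867), B6 mouse 2 (0.091), NZW mouse 1 (0.0791), or NZW mouse 3 (0.0543). The Clic5 call was also lost with no filter on dim probes (0.0566) and with the tables normalized together (0.0784), and without background correction it was kept at a difference of -0.37. Efnb1, an ephrin ligand of the slit diaphragm, and Thsd7a, a podocyte surface protein, were 0.41 and 0.42 higher in B6 without passing the threshold (adjusted p = 0.113 and 0.0973). Npnt, a matrix protein of the basement membrane, was at -0.29 (adjusted p = 0.131). The strains overlapped in the other 4 tested genes, Nes, Pdpn, Rhpn1, and Vegfa, whose differences were 0.12, -0.04, 0.01, and 0.19.

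**Figure D3:**
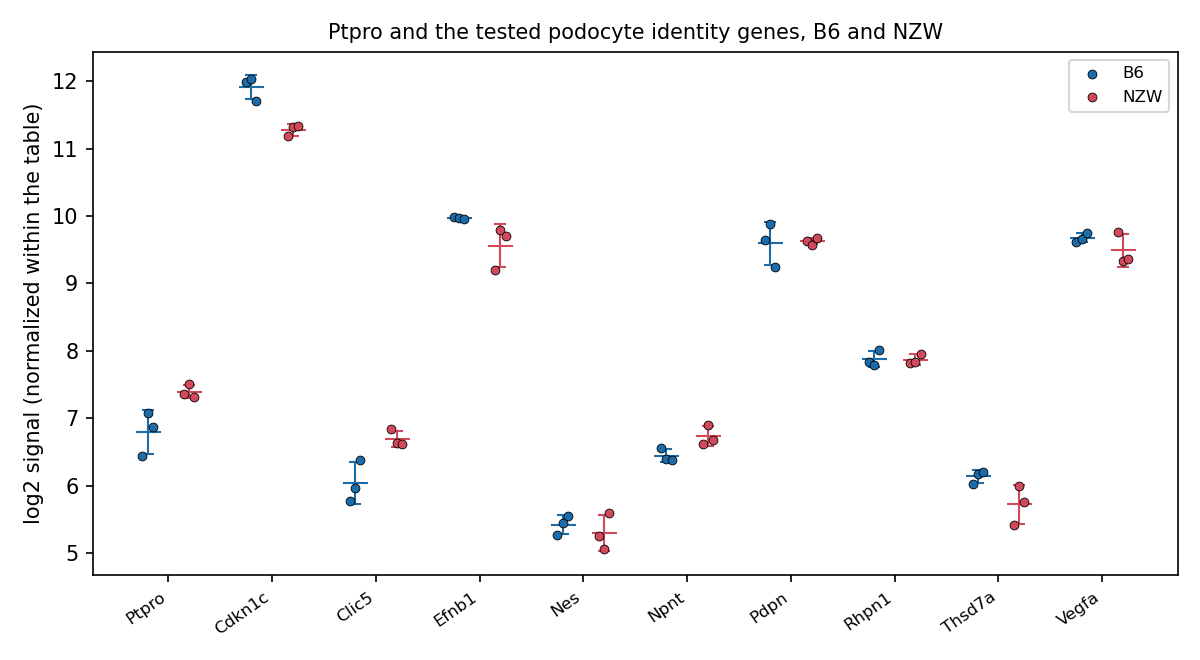
Log2 signal of Ptpro and the 9 tested podocyte identity genes in B6 and NZW, 1 point per mouse, with the mean and SD (n = 3). Ptpro, Clic5, and Npnt are lower in every B6 mouse than in every NZW mouse, Cdkn1c, Efnb1, and Thsd7a are higher, and the strains overlap in Nes, Pdpn, Rhpn1, and Vegfa, where 37.3% of all tested probes show no overlap.

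Of 20 genes of foot process actin and adhesion, 15 were tested and 0 were called in B6 minus NZW by the brightest probe with limma, against 18.8% of all tested probes, with a median of -0.08. Over all 24 tested probes of the list, 3 had an unadjusted p under 0.05, all of Cd151, a tetraspanin of podocyte adhesion. These went apart, the brightest at -0.36 (adjusted p = 0.0532) and the others at 1.09 and -0.97 (adjusted p = 0.00029 and 0.0495). In the table of BALB/c, DBA1, and 129/svj, 3 slit diaphragm partners, 7 actin and adhesion genes, and 4 podocyte identity genes were tested, and 0 were called by limma in any comparison, where 5.75% (BALB/c minus DBA1), 4.82% (BALB/c minus 129/svj), and 4.48% (DBA1 minus 129/svj) of all tested probes were. Rhpn1 was detected in 0 BALB/c, 2 DBA1, and 1 129/svj mice and passed the filter mainly through the strain in which it was highest, so it is left out of what follows. Of the other 3 podocyte identity genes, Pdpn and Vegfa separated the mice of BALB/c and DBA1, Pdpn those of DBA1 and 129/svj, and 0 those of BALB/c and 129/svj, where 25.5%, 17%, and 21.9% of all tested probes did. Pdpn, a podocyte membrane glycoprotein, was at -0.65 for BALB/c minus DBA1 and 0.68 for DBA1 minus 129/svj (limma adjusted p = 0.079 and 0.0871). The Clic5 row there gave -0.04 for BALB/c minus DBA1 and -0.30 for BALB/c minus 129/svj (adjusted p = 0.951 and 0.59). Over the paired probes, Clic5 was at -0.40 for resistant minus sensitive (adjusted p = 0.0759).

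Markers of other cortical cells were followed in 7 lists, and their part in the podocyte results was not tested. Of their 32 tested genes 6 were called in B6 minus NZW, 18.8%, the same as the 18.8% of all tested probes. Of 9 glomerular endothelial genes, all tested, 1 was higher in B6, the endocytic Ehd3, by 1.85 (limma adjusted p = 6.08e-06). The list had a median of -0.01, and its brightest gene, Emcn, was not called. Of 3 tested mesangial genes, 1 was higher, the smooth muscle actin Acta2, by 0.95 (adjusted p = 0.0056), a call lost with the tables normalized together (0.121). Of 2 parietal epithelial genes, the junction protein Cldn1 was lower by 0.47 on the log2 scale (-0.47, adjusted p = 0.0342). The Cldn1 call was lost without B6 mouse 2 (0.108), B6 mouse 3 (0.122), NZW mouse 2 (0.0775), or NZW mouse 3 (0.0947). Of 7 proximal tubule genes, 2 were lower, the albumin receptor Cubn at -0.60 and the oxygenase Miox at -0.41 (adjusted p = 0.00701 and 0.0366). The Cubn difference was -0.36 without background correction, and its call was lost with the tables normalized together (0.261). The Miox call was lost without B6 mouse 1 (0.126), B6 mouse 2 (0.139), NZW mouse 2 (0.0835), or NZW mouse 3 (0.087). Of 5 distal genes 1 was higher, the sodium chloride carrier Slc12a3, at 1.46 by its brightest probe (adjusted p = 0.00012). Its other probes gave 0.77, 0.13, and -0.14 (adjusted p = 0.00118, 0.551, and 0.52). Of 4 tested macrophage and 2 tested lymphocyte genes 0 were called by limma.

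Of 4 tubule injury genes 3 were called in B6 minus NZW (75%, against 18.8% of all tested probes), 1 lower and 2 higher. Havcr1, the kidney injury molecule, read 7.92, 7.54, and 5.40 in B6 and 10.27, 9.05, and 9.85 in NZW, a difference of -2.77 (limma adjusted p = 0.0134) that was lost without NZW mouse 1 (0.0582) or NZW mouse 3 (0.0518). Lcn2, a secreted injury marker, read 12.29, 12.35, and 10.55 in B6 and 10.41, 9.38, and 10.01 in NZW, a difference of 1.80 (adjusted p = 0.0285). It was lost without B6 mouse 1 (0.096), B6 mouse 2 (0.0947), NZW mouse 2 (0.0819), or NZW mouse 3 (0.0755). Spp1, which encodes osteopontin and was the brightest of the list, was higher by 0.69 (adjusted p = 0.0341), a call kept only without B6 mouse 3, with adjusted p = 0.0667 to 0.122 for the other mice left out. The filament protein Vim was at 0.80 (adjusted p = 0.052). The strains did not overlap in any of the 4, against 37.3% of all tested probes without overlap. B6 mouse 3 was the lowest B6 mouse for all 4, and it was in the middle of the B6 mice for Ptpro. Without it the Ptpro difference was -0.64, and a relation between tubule injury and Ptpro was not tested. The summed signal of the proximal tubule list was 74513 to 86257 in B6 and 91789 to 100020 in NZW, to which the Miox probe contributed most, and that of the members was 8539 to 9290 in B6 and 7514 to 8780 in NZW, to which the Podxl probe contributed most.

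In the table of BALB/c, DBA1, and 129/svj, 20 marker genes of other cortical cells were tested. Itga8, a mesangial integrin, was detected in 0 BALB/c, 3 DBA1, and 1 129/svj mice and passed the filter mainly through the strain in which it was high, so it was left out of the gene counts that follow and is given as a bound, DBA1 being at least 1.3-fold higher than BALB/c. Of the other 19 genes 2 were called in BALB/c minus DBA1 (10.5%), 2 in BALB/c minus 129/svj (10.5%), and 1 in DBA1 minus 129/svj (5.26%), where the shares of all tested probes were 5.75%, 4.82%, and 4.48%. Calb1, a calcium-binding protein of the distal tubule, was 1.25 higher in BALB/c than in DBA1 (limma adjusted p = 0.0449). With a mouse left out that call was kept only without 129/svj mouse 2 or 129/svj mouse 3 (0.0135 and 0.0174), and the adjusted p was 0.061 to 0.164 for the others. Cd14, a macrophage receptor, was at -2.79 for BALB/c minus DBA1 (adjusted p = 0.0136), which was lost without BALB/c mouse 2 (0.0674) or DBA1 mouse 2 (0.0522). Slc5a2, the glucose carrier of the proximal tubule, was higher than in 129/svj by 1.53 in BALB/c and by 1.23 in DBA1 (adjusted p = 0.00353 and 0.0144), and the latter was lost without 129/svj mouse 2 (0.063). Slc22a6, an organic anion carrier, was at -1.39 for BALB/c minus 129/svj (adjusted p = 0.0366). That call was kept only without a DBA1 mouse, and without a BALB/c or 129/svj mouse the adjusted p was 0.0589 to 0.142.

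**Figure D4:**
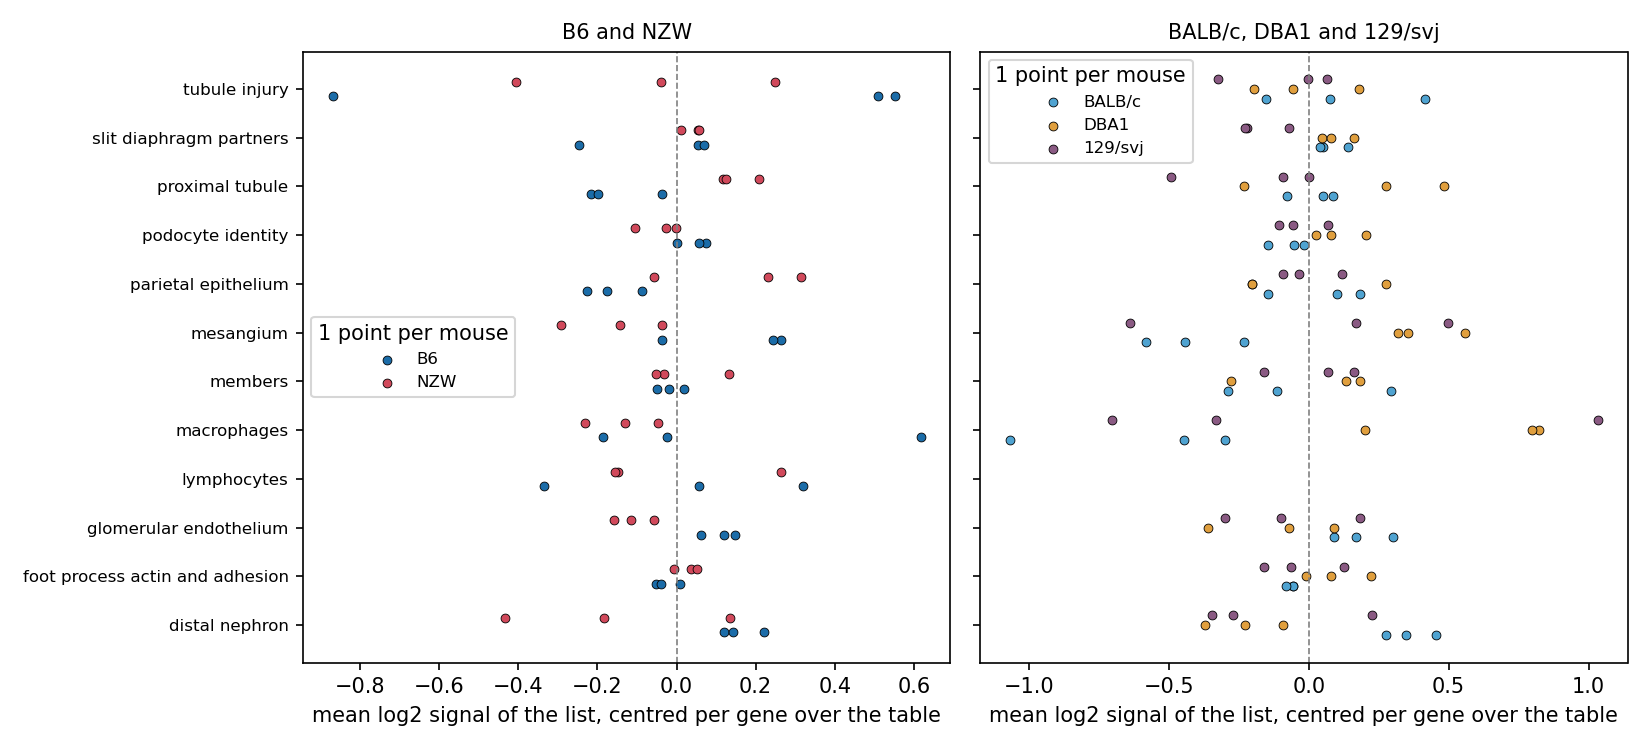
Mean log2 signal of the tested genes of each list, centred per gene over the mice of a table, 1 point per mouse. The member points of all strains overlap. B6 and NZW also overlap in 6 of the 11 other lists and lie apart in 5 (proximal tubule, glomerular endothelium, mesangium, parietal epithelium, and podocyte identity), of which mesangium and podocyte identity lie apart by only 0.0013 and 0.0040, and without Ehd3 the glomerular endothelium points overlap. Of the 10 other lists in the right panel, 5 lie apart between BALB/c and DBA1 (distal nephron, foot process actin and adhesion, macrophages, mesangium, and podocyte identity), 2 between BALB/c and 129/svj (distal nephron and slit diaphragm partners), and 1 between DBA1 and 129/svj (slit diaphragm partners). The means there include Itga8 (mesangium) and Rhpn1 (podocyte identity), and over genes detected in all 9 mice podocyte identity overlaps and mesangium is Acta2 alone, which lies apart. No lymphocyte gene was tested in the right panel.

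The genes whose profile was most like that of the podocyte-restricted members were sought among 6894 paired probes over the 15 mice, centred within each table. The profile was the mean of Nphs1 and Synpo, the restricted members that passed. These followed each other only weakly (Pearson r = 0.289 and Spearman rho = 0.5 over the 9 mice of BALB/c, DBA1, and 129/svj, 0.199 and 0.143 over the 6 of B6 and NZW), so the mean is not a profile that both share. The 5 most alike were A130022A09Rik (Pearson r = 0.836), Cacng1 (0.79), Ksr (0.776), Slc13a3 (0.774), and Lpin2 (0.768). None is on the podocyte lists, and the points share strain, table, and array, so the values describe likeness only.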

How the data were processed

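RNA of kidney cortex was hybridised to Illumina Mouse WG-6 BeadChips and read with BeadStudio, per the labels. The authors deposited an intensity for each probe and array without normalization, with a detection p-value against negative controls, in 2 tables that were treated apart. Of their signal columns, 0 belonged to no sample of the study. Signals were corrected with the normexp method of limma 3.58.1 in R 4.3.3 (detection p, offset 16), quantile normalized within a table, and taken to log2. In the table of BALB/c each strain has a repeat array of mouse 1, which was averaged with the first, as was its detection p. Probes detected (p of at most 0.05) in 3 or more mice were fitted with lmFit and eBayes, 1 coefficient per strain, with Benjamini-Hochberg adjustment over all tested probes and a threshold of 0.05. Resistant and sensitive strains were compared over 19886 probes paired by a search key unique in both tables, normalized together. Intervals are 95%. The p-values measure the spread between the mice of a strain, and exact tests of 3 mice against 3 cannot go below 0.1.

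The members and lists were chosen with earlier results of these data known. Every member probe is described. From each other list, in each pairwise comparison, up to 4 called genes by size of difference and the brightest gene could be named. Efnb1, Thsd7a, Npnt, Nes, Pdpn, Rhpn1, Vegfa, Vim, Cd151, Magi1, Pard3, and Fat1 in B6 and NZW, and Pdpn and Rhpn1 in the other table, were named after their values were seen. A gene of the lists is not reported here and is left out of their counts. Python 3.11.15 and pandas 2.3.3 read the tables. The fits were first tested on simulated data in which 200 probes had been changed. Alternatives were no background correction, another scaling, filter, variance model, and test, the replicate number as a block, and each mouse left out in turn. The number of mice and arrays limits the precision, and arrays give no counts.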

Additional observations from a re-analysis of the deposited data

Results flagged for a closer look

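For 3 probes of the cell marker lists the differences within the tables were unlike, by a test of the difference between them in the joint fit of limma. The probes were paired by search key alone, and whether paired probes read alike was not tested. For a dim probe of Lrp2 (ILMN_2708043), the endocytic receptor megalin of the proximal tubule, BALB/c was 0.63 above the mean of DBA1 and 129/svj while B6 minus NZW was -1.13, a difference of 1.76 (SE 0.21, adjusted p = 4.78e-05). The brightest Lrp2 probe (ILMN_2735522) gave 0.20 and -0.09, a difference of 0.29 that was not called (adjusted p = 0.62). For Aqp2, the water channel of the collecting duct, these values were 0.91 and -0.50, a difference of 1.42 (SE 0.40, adjusted p = 0.0338). For Cd14 they were -2.04 and 0.10, a difference of -2.15 (SE 0.65, adjusted p = 0.0479). The joint Cd14 levels were 7.78, 7.08, and 9.64 in 129/svj and 9.24, 9.98, and 10.58 in DBA1. In BALB/c minus 129/svj Cd14 was not called. The flagged differences were not recomputed under the alternatives. Neither Nphs1 nor Synpo was among the 711 probes called in the test of the difference.

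A signal was also present at a probe that the list of symbols does not take in. The Acvrinp1 probe, which shares its search key with the Magi2 probe, was detected in 6 of 6 B6 and NZW mice.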

How the results depend on the processing

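Differences of the tested members other than Ptpro were small, and the direction of several of them depended on the setting. Without background correction Nphs1 turned to 0.0070 for BALB/c minus DBA1, 0.0187 for BALB/c minus 129/svj, and 0.0153 for resistant minus sensitive. Under 75th percentile scaling Podxl turned to -0.0277 in B6 minus NZW, and resistant minus sensitive turned to 0.0023 for Nphs1 and -0.0321 for Synpo. Where the tables were normalized apart, the latter was 0.0382 for Nphs1. With 1 mouse left out in turn, Nphs1 ranged from -0.15 to 0.23 in B6 minus NZW, from -0.37 to 0.25 in BALB/c minus DBA1, from -0.34 to 0.28 in BALB/c minus 129/svj, from -0.081 to 0.16 in DBA1 minus 129/svj, from -0.18 to 0.15 in resistant minus sensitive, and from -0.42 to 0.24 in the difference of the within-table differences. Synpo then ranged from -0.22 to 0.0381 in BALB/c minus DBA1 and from -0.15 to 0.11 in DBA1 minus 129/svj. None of these values passed the threshold.

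The Ptpro call in B6 minus NZW was lost with no filter on dim probes (adjusted p = 0.0761) and with the methods' t-test, adjusted likewise (0.149), which left 0 member probes called, as did the tables normalized together, where the called Ptpro probe has no pair. It was kept in the other 5 alternatives and, with 1 mouse left out in turn, 0 or 1 member probes were called. With the repeat arrays left out 1 of 3 member rows, Magi2, was called in BALB/c minus DBA1 and 1 in BALB/c minus 129/svj, but the row passed the filter only through BALB/c, where it was high, and no DBA1 or 129/svj array detected it, so these calls are no test. Under no background correction and no filter, chosen after seeing the data, Magi2 was not called (adjusted p = 0.0963 and 0.226). Counting every probe in place of 1 per gene changed no member count. Cdkn1c, Ehd3, and Slc12a3 passed the threshold in all 7 alternatives and with each of 6 mice left out. Values were recomputed for the tested members and for the called genes other than Cd151, not for the other named genes. Of these 550 values, 77 were no longer past the threshold in the same direction, and 35 changed sign. The 550 include member results not called in the main fit, which could not lose a call, so 77 of 550 understates the share of calls lost. By adjusted p, calls were lost with no filter for Clic5, Havcr1, Lcn2, Spp1, Calb1, and Slc22a6, under 75th percentile scaling for Spp1, with the tables normalized together for Acta2, Clic5, and Cubn, with the replicate block for Cldn1 (0.0777), Miox (0.0675), and Calb1 (0.0546), with the repeat arrays left out for Calb1, and with trended variances for Havcr1 and Lcn2. The methods' t-test, adjusted likewise, kept those of Cdkn1c, Ehd3, Slc12a3, and Cubn among the recomputed calls, which leave out Cd151. The cause was not tested.

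For probes detected in every mouse the counts of called probes were 587 in BALB/c minus DBA1, 466 in BALB/c minus 129/svj, 368 in DBA1 minus 129/svj, 412 in resistant minus sensitive, and 381 in the difference of the within-table differences, where fewer probes were tested. The t-test gave 1851 in B6 minus NZW, 399, 318, and 218 in the other pairwise comparisons in the same order, and 32 in resistant minus sensitive, where strain as a random block gave 105. The tables normalized together gave 678 in B6 minus NZW, among fewer probes. With 1 mouse left out the counts ranged from 1723 to 2626 in B6 minus NZW, 452 to 1163, 443 to 944, and 426 to 731 in the other pairwise comparisons, 581 to 936 in resistant minus sensitive, and 466 to 834 in the difference. The replicate numbers did not pair the mice of every strain. Deviations of same-numbered mice correlated at -0.259 to 0.387 in the table of BALB/c and at -0.073 to 0.011 in that of B6. Between DBA1 and 129/svj they correlated at 0.192, 0.105, and 0.387, where mice of different numbers in that table reached 0.4. With the replicate block DBA1 minus 129/svj had 326 probes called higher and 352 lower, against 344 and 365 without it. With the replicate block B6 minus NZW had 2621 called probes, against 3157 without it, and the Ptpro call was kept (adjusted p = 0.0321).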
